A study of Mus musculus with 5 samples.

Results

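The 10 genes described here form the supply and reception side of transforming growth factor beta (TGF-beta) signalling: the ligands Tgfb1, Tgfb2 and Tgfb3, the receptors Tgfbr1, Tgfbr2 and Tgfbr3, the latency genes Ltbp1, Ltbp3 and Ecm1, and Tgfbi, a secreted matrix protein induced by the pathway. They were chosen by their roles in the pathway, with earlier results of these data known. The choice was made from the 31053 genes listed in each of 5 single-cell RNA count matrices of mouse liver. All 10 had UMIs in all 5 libraries. A UMI is a molecular identifier that marks 1 captured RNA molecule, and every level below is in CPM (UMIs of the gene in every 1000000 UMIs of the named cells). Each UMI came from the 3′ end of an RNA, so levels were not divided by gene length and are compared between cells, not between genes.

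The libraries came from male mTmG;CC mice, which carry a Rosa26 mTmG reporter and a Cre recombinase driven by the Col1a1 promoter, on C57BL/6J. Cells in which Cre was ever active turn from red to green fluorescence. Diseased mice received diethylnitrosamine (DEN), a liver carcinogen, at 10 mg/kg at 2 weeks of age, and from 6 weeks of age a Western diet with alcohol (WAD, 3.5% v/v) for 5 months. Control mice received saline and chow. Non-parenchymal liver cells were sorted on vitamin A autofluorescence, a property of hepatic stellate cells (HSC), and on the Col1a1 reporter. For each condition 1 gate was VitA+Col1a1+ and 1 was VitA-Col1a1+, and a gate labelled VitA-Col1a1- was added for DEN+WAD mice. The 4 Col1a1+ libraries are named by vitamin A and condition below (VitA+ DEN+WAD, VitA- chow and so on), and the last is called the library labelled VitA-Col1a1-. Each group was 1 library, and the number of mice behind each was not given in the sources used here.

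TGF-beta is secreted in a latent complex, held inactive by its own propeptide and tethered to the matrix by latent TGF-beta binding proteins such as LTBP1 and LTBP3. Integrins and thrombospondin 1 release it, after which it binds TGFBR2, which recruits TGFBR1, and the signal passes through SMAD2 and SMAD3. In the liver it is known as a main driver of HSC activation and of collagen deposition. ECM1 is a secreted matrix protein described as keeping latent TGF-beta in the liver inactive. RNA levels speak to none of this release step.

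The starts of 3 of these genes are shown because their RNA was placed so differently among the cells below. Tgfb1 RNA was found in mesenchymal, endothelial and immune cells, and Tgfb2 RNA mainly in mesenchymal and bile duct cells. Ecm1 RNA was mesenchymal, with its highest level in cells with stellate markers, though in VitA- chow these cells held only 36.9% of its UMIs. The sequences are the 150 bases before the RefSeq start on GRCm38.p6, 5′ to 3′ on the gene's own strand, at chr7:25686852-25687001 on the plus strand for Tgfb1, chr1:186705990-186706139 on the minus strand for Tgfb2 and chr3:95739570-95739719 on the minus strand for Ecm1. Capitals mark the TATA box TATAAA, the AP-1 motif TGANTCA, the GC box CCGCCC and the cAMP response element TGACGTCA, each searched on both strands.
Tgfb1: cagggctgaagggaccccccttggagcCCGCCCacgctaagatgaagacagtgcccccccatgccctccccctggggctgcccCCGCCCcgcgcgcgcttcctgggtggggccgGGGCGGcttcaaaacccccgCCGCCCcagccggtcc
Tgfb2: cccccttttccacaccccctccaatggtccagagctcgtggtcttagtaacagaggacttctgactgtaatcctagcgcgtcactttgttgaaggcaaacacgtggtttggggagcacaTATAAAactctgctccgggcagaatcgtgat
Ecm1: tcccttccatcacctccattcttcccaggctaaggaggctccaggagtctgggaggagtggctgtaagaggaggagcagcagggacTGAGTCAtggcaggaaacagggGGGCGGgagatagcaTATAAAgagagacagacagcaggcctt

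The Tgfb1 stretch holds 4 GC boxes and no TATAAA, and the 250 bases searched before the start held 5 in all. Tgfb2 carries TATAAA starting 31 bases before its start and none of the other motifs. Ecm1 carries TATAAA 27 bases, a GC box 42 bases and TGANTCA 64 bases before its start. Of 32851 RefSeq mouse promoters of the same length, 12.4% held TATAAA, 6.75% TGANTCA, 32.7% CCGCCC and 1.55% TGACGTCA. Among the other members with an entry, Tgfbr1 had 2 GC boxes before the first of its 2 starts, Tgfbi had 1 GC box, Ltbp1 had TGACGTCA 73 bases before the first of its 2 starts, and Tgfbr2 and Ltbp3 had none of these letters. In all, 8 of the 10 members were matched, and Tgfb3 and Tgfbr3 were not. These matches are letters in a window and were not tested as binding sites.

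Cells were placed in classes by marker genes, none of which is a member. The mesenchymal rule took in 10210 cells (97.4%) of VitA+ DEN+WAD, 2182 (80.0%) of VitA- DEN+WAD, 244 (94.2%) of VitA+ chow and 614 (91.9%) of VitA- chow. The library labelled VitA-Col1a1- held 4655 mesenchymal cells, 47.2% of its cells. Their Col1a1 level was 2050 CPM, above the 103 to 1922 of the other libraries, so the RNA goes against the Col1a1- label and no direction is drawn from it. The same library held 2336 endothelial and 750 macrophage cells, and no other library held a cell that met the macrophage rule. Every sample is labelled a hepatic stellate cell. A further 860 cells (8.71%) of that library met more than 1 rule and were set apart. Libraries ranged from 259 to 10481 cells and from 6145748 to 149936344 UMIs, and any pair shared at most 21 cell barcodes. With 1 library per group no test between groups was possible. The 95% intervals below are exact and cover counting error only, and ratios have no replicate check.

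Tgfb1, the ligand most studied in liver fibrosis, was broadly placed and was highest in macrophages and endothelial cells. In the library labelled VitA-Col1a1- its level was 228 CPM (95% interval 219 to 236) in macrophages, 202 (196 to 209) in endothelial cells and 83.2 (80.7 to 85.8) in mesenchymal cells. T or NK cells stood at 90.3, B cells (35 cells) at 96.2 and bile duct cells at 8.34, from 5 UMIs. The order macrophage, endothelial, then mesenchymal was separated by intervals that did not overlap, although the step from endothelial cells to macrophages was a ratio of only 1.12 (1.07 to 1.18). Mesenchymal, T or NK and B cells were close together. Tgfb1 was also higher in endothelial than in mesenchymal cells of the VitA- DEN+WAD library, at 309 (295 to 323) against 88.7 (85.8 to 91.7). The small endothelial groups of the other libraries were in the same range, at 258 in VitA+ DEN+WAD, 328 in VitA+ chow (9 cells) and 285 in VitA- chow (36 cells). Platelets are another known source of TGF-beta 1, and the summed level of 4 platelet genes (Pf4, Ppbp, Itga2b, Gp9) in the labelled library was 102.6 CPM in mesenchymal cells, 15.5 in endothelial cells and 52.3 in macrophages. Of these genes Ppbp was at 0.745 CPM in endothelial cells and 0.171 in macrophages, and Pf4, at 90.7, 5.75 and 51.7 in the 3 classes, made up most of the sum in mesenchymal cells and macrophages. In mesenchymal cells of VitA+ DEN+WAD the sum was 123.6 CPM with no Ppbp UMI, so the sum alone is not a measure of platelets. The part of platelet RNA in the Tgfb1 levels was not tested.

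**Figure D1:**
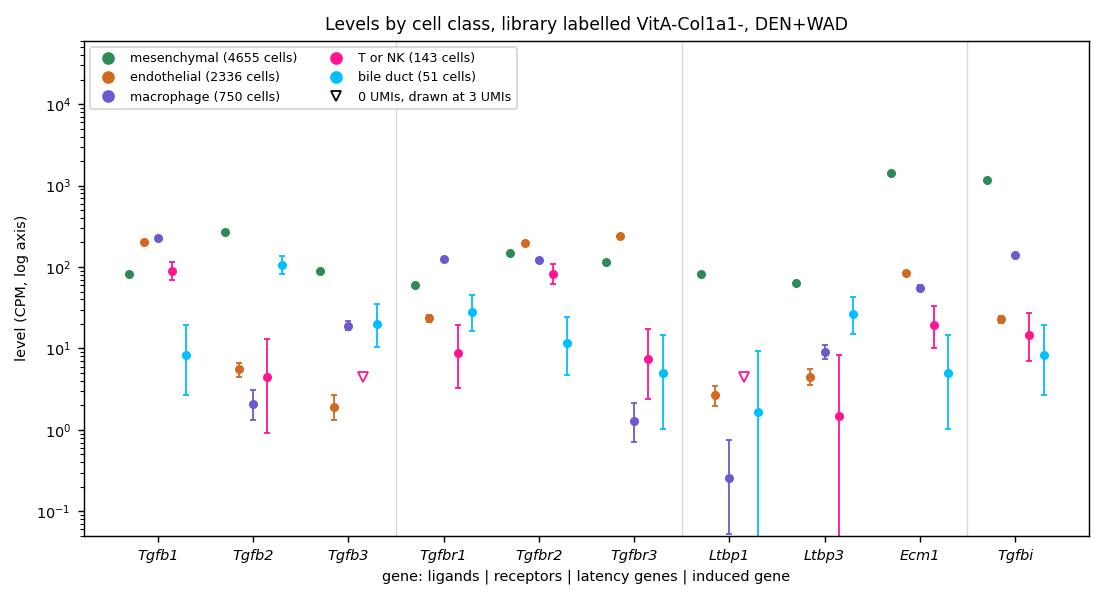
Levels of the 10 members (CPM, log axis) in the mesenchymal, endothelial, macrophage, T or NK and bile duct cells of the library labelled VitA-Col1a1-, with exact 95% counting intervals as bars and open triangles where a class had 0 UMIs, drawn at 3 UMIs. Tgfb1 is highest in macrophages (228) and endothelial cells (202), while Tgfb2 is at 272 in mesenchymal cells and at 5.54 and 2.06 in those classes.

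Tgfb2, a ligand with a known role in smooth muscle and connective tissue development, was low in endothelial cells and macrophages and high in mesenchymal cells. Its level in the labelled library was 272 (268 to 277) in mesenchymal cells, 5.54 (4.52 to 6.71) in endothelial cells and 2.06 (1.32 to 3.06) in macrophages. The endothelial value was 2.03% and the macrophage value 0.755% of the mesenchymal one. As a yardstick for RNA carried over between droplets, the mesenchymal markers Lrat, Pdgfrb, Col1a2, Lum and Bgn ranged from 0.645% (Col1a2) to 7.47% (Bgn) of their mesenchymal level in endothelial cells and from 0.409% (Pdgfrb) to 0.737% (Bgn) in macrophages. Endothelial Tgfb2 lay within that range and macrophage Tgfb2, from 24 UMIs, just above its own, and neither is read as expression. The top of the endothelial range rests on Bgn alone, so a value within it does not exclude expression. In VitA+ DEN+WAD, where mesenchymal Tgfb2 was lower, endothelial Tgfb2 was at 7.54 (3.90 to 13.2, 12 UMIs), 23.1% of the mesenchymal level. Whether endothelial cells express Tgfb2 was not tested. Bile duct cells were the exception outside the mesenchyme, at 107 (82.3 to 136) over 51 cells. In the other libraries, over few bile duct cells, they stood at 133 (86.0 to 196, 19 cells) in VitA+ DEN+WAD, 52.9 (30.8 to 84.6, 12 cells) in VitA- DEN+WAD, 199 (91.0 to 378, 2 cells) in VitA+ chow and 224 (133 to 355, 3 cells) in VitA- chow. Bile duct Tgfb2 was above the mesenchymal level in VitA+ DEN+WAD and in both chow libraries, although the VitA- chow interval reaches below the mesenchymal value.

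Tgfb3, the third ligand, was mesenchymal too, with a smaller amount in macrophages. In the labelled library it stood at 89.8 (87.2 to 92.5) in mesenchymal cells, 1.92 (1.34 to 2.65) in endothelial cells and 19.1 (16.7 to 21.8) in macrophages. The macrophage value was 21.3% of the mesenchymal one, far above the marker range of that class, whereas the endothelial value, 2.13%, lay within the range of its own. Tgfb3 overlaps Ttll5 on the other strand.

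Because the classes differ in size and in UMIs per cell, a library's ligand RNA divides differently from the levels. Of all Tgfb1 UMIs of the labelled library, 29.3% were in mesenchymal cells, 26.8% in endothelial cells, 18.7% in macrophages and 22.1% in cells that met more than 1 rule. The same classes held 47.3%, 17.8%, 11.0% and 15.6% of all UMIs. Mesenchymal cells held 89.9% of the Tgfb2 UMIs and 83.6% of the Tgfb3 UMIs. In cells thinned to 2000 UMIs each, a Tgfb1 UMI was found in 15.5% of mesenchymal, 30.9% of endothelial and 35.1% of macrophage cells of that library, against 47.4%, 69.9% and 78.8% without thinning, where the median depths were 10638, 7872.5 and 14957.5 UMIs. Tgfb2 after thinning was found in 28.6% of mesenchymal cells and in 0.795% and 0.882% of the other classes, and without thinning in 53.8%, 2.95% and 2.00%.

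**Figure D2:**
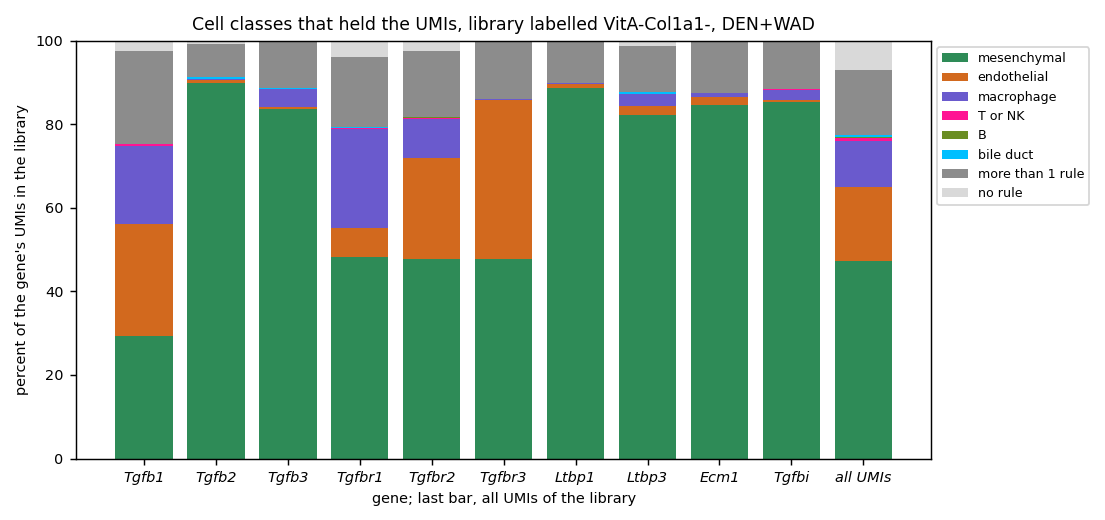
Percent of each member's UMIs (stacked bars, vertical axis) that fell in each class of the library labelled VitA-Col1a1-, with all UMIs of the library as the last bar. Tgfb1 is spread over mesenchymal (29.3%), endothelial (26.8%) and macrophage (18.7%) cells, while 89.9% of Tgfb2 lies in mesenchymal cells.

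Among the receptors, Tgfbr2, the ligand-binding kinase, was the most evenly spread. Its level in the labelled library was 199.6 (193 to 206) in endothelial cells, 149 (145 to 152) in mesenchymal cells and 123 (117 to 130) in macrophages. T or NK cells stood at 82.9. No pair of the 3 main classes differed by 2-fold in this library. In VitA- DEN+WAD the endothelial level was 206 (195 to 218) against 87.1 (84.2 to 90.1) in mesenchymal cells, a ratio of 2.37 (2.22 to 2.52).

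Tgfbr1, the kinase that passes the signal on, was highest in macrophages. It stood at 126 (120 to 133) in macrophages, 59.9 (57.8 to 62.1) in mesenchymal cells and 23.5 (21.4 to 25.8) in endothelial cells, which is the reverse of the Tgfbr2 order for endothelial cells. The macrophage level was 2.10 times (1.97 to 2.24) the mesenchymal one and 5.35 times (4.81 to 5.97) the endothelial one. Endothelial Tgfbr1 was low in the VitA- DEN+WAD library as well, at 23.8 (20.1 to 27.9) against 51.4 (49.1 to 53.6) in its mesenchymal cells. Tgfbr1 UMIs after thinning were found in 22.8% of macrophages, 12.2% of mesenchymal cells and 5.21% of endothelial cells (65.2%, 38.2% and 16.7% without thinning).

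Tgfbr3, the co-receptor betaglycan, which presents ligand and is known to be needed above all for TGF-beta 2, was near 0 in macrophages. Its level in the labelled library was 242 (235 to 249) in endothelial cells, 114 (111 to 117) in mesenchymal cells and 1.28 (0.719 to 2.12, 15 UMIs) in macrophages. With cells of more than 1 rule kept, the endothelial excess over mesenchymal cells was under 2-fold. The macrophage value was 1.13% of the mesenchymal one, close to the marker range of 0.409% to 0.737%. Mesenchymal cells held 47.7% and endothelial cells 38.2% of its UMIs. The classes thus carried different receptor sets in RNA, with Tgfbr1 and Tgfbr2 in macrophages, Tgfbr2 and Tgfbr3 with less Tgfbr1 in endothelial cells, and all 3 in mesenchymal cells.

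The latency genes were mesenchymal. Ltbp1, which tethers the latent complex to the matrix, stood at 82.4 (79.9 to 85.0) in mesenchymal cells, 2.66 (1.98 to 3.51) in endothelial cells and 0.257 (0.0530 to 0.751, 3 UMIs) in macrophages. Ltbp3, which also aids secretion of the complex, stood at 63.7 (61.5 to 66.0), 4.47 (3.57 to 5.54) and 9.17 (7.51 to 11.1) in the same order. Macrophage Ltbp3, at 14.4% of the mesenchymal level, was above the marker range, and macrophage Ltbp1, at 0.312%, was not. Ecm1 stood at 1427 (1417 to 1438) in mesenchymal cells, 85.2 (81.0 to 89.4) in endothelial cells and 54.9 (50.7 to 59.3) in macrophages. Macrophage Ecm1, at 3.85% of the mesenchymal level, was above the marker range, and endothelial Ecm1, at 5.97%, was above 4 of the 5 markers but below Bgn. In VitA+ DEN+WAD, where Ecm1 was far higher in mesenchymal cells, endothelial Ecm1 was also higher, at 253 (229 to 279). The part of free RNA in the endothelial values was not tested.

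Tgfbi followed the mesenchyme with a macrophage share. It stood at 1161 (1151 to 1170) in mesenchymal cells, 139 (133 to 146) in macrophages and 22.9 (20.8 to 25.2) in endothelial cells of the labelled library. The macrophage level was 6.09 times (5.47 to 6.79) the endothelial one with cells of more than 1 rule set apart. When those cells were kept in each class they met, the log2 ratio was -0.0039. Of them 302 met the endothelial and macrophage rules, 410 the mesenchymal and endothelial rules and 80 the mesenchymal and macrophage rules. The part of each group in that change was not tested. Ltbp3 behaved alike in the macrophage and endothelial comparison, at a ratio of 2.05 (1.53 to 2.76) and a log2 ratio of -0.011 with cells of more than 1 rule kept.

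Read as counts, 9 of 10 members were 2-fold or more apart between macrophages and mesenchymal cells of the labelled library, 2 higher (Tgfb1, Tgfbr1) and 7 lower, where 42.4% of all genes tested were that far apart. Between endothelial and mesenchymal cells the count was 9 of 10, with Tgfb1 and Tgfbr3 higher and 7 lower, against 30.6% of all genes. The same contrast in VitA- DEN+WAD gave 9 of 10, with Tgfb1 and Tgfbr2 higher and 7 lower, against 36.1%. Between macrophages and endothelial cells 5 of the 8 members with enough UMIs were past 2-fold, against 44.7%, with Tgfb3, Tgfbr1, Ltbp3 and Tgfbi higher and Tgfbr3 lower. The 3 comparisons within the labelled library share its cells and are not independent. Keeping cells of more than 1 rule brought Tgfbr1 under 2-fold in both contrasts with mesenchymal cells there, and Tgfbr3 in the endothelial one. Under trimmed-mean scaling (TMM) the endothelial excess was just under 2-fold for Tgfbr3 in the labelled library (log2 0.96) and for Tgfbr2 in VitA- DEN+WAD (log2 0.98). The same scaling moved the higher share of all genes past 2-fold from 29.8% to 44.7% in macrophages over endothelial cells and from 59.1% to 47.2% in the endothelial contrast of VitA- DEN+WAD.

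Within mesenchymal cells the study's conditions could be compared over 4 libraries. The levels in VitA+ DEN+WAD, VitA- DEN+WAD, VitA+ chow and VitA- chow, in that order, were 117, 88.7, 121 and 45.6 for Tgfb1. For Tgfb2 they were 32.6, 91.5, 23.7 and 136. For Tgfb3 they were 9.05, 48.7, 5.15 (30 UMIs) and 100.1. Tgfb1 was thus highest in the VitA+ gate, where the intervals of the 2 conditions overlapped, and lowest in VitA- chow, while Tgfb2 and Tgfb3 were in the opposite order. The mesenchymal cells of the labelled library had 83.2 for Tgfb1, 272 for Tgfb2 and 89.8 for Tgfb3.

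The receptors varied less. In the same library order Tgfbr1 was at 34.0, 51.4, 30.9 and 74.7. Tgfbr2 was at 79.3, 87.1, 104 and 145. Tgfbr3 was at 157, 159.8, 253 and 217. Each of the 3 receptors was highest in a chow library of the 4, Tgfbr1 and Tgfbr2 in the VitA- gate and Tgfbr3 in the VitA+ gate.

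Ecm1 showed the widest range of the latency genes, at 9978, 4598, 10083 and 838 in the same order. Ltbp1 was nearly level, at 74.3, 94.3, 75.4 and 84.1, and Ltbp3 was at 44.6, 76.0, 54.4 and 97.8. Tgfbi was at 2562, 1881, 2506 and 565. Ecm1 and Tgfbi were therefore both lowest in VitA- chow. After thinning to 2000 UMIs an Ecm1 UMI was found in 99.8% of VitA+ and 91.4% of VitA- mesenchymal cells of DEN+WAD mice and in 64.2% of VitA- chow cells, against 99.8%, 99.0% and 98.7% without thinning.

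**Figure D3:**
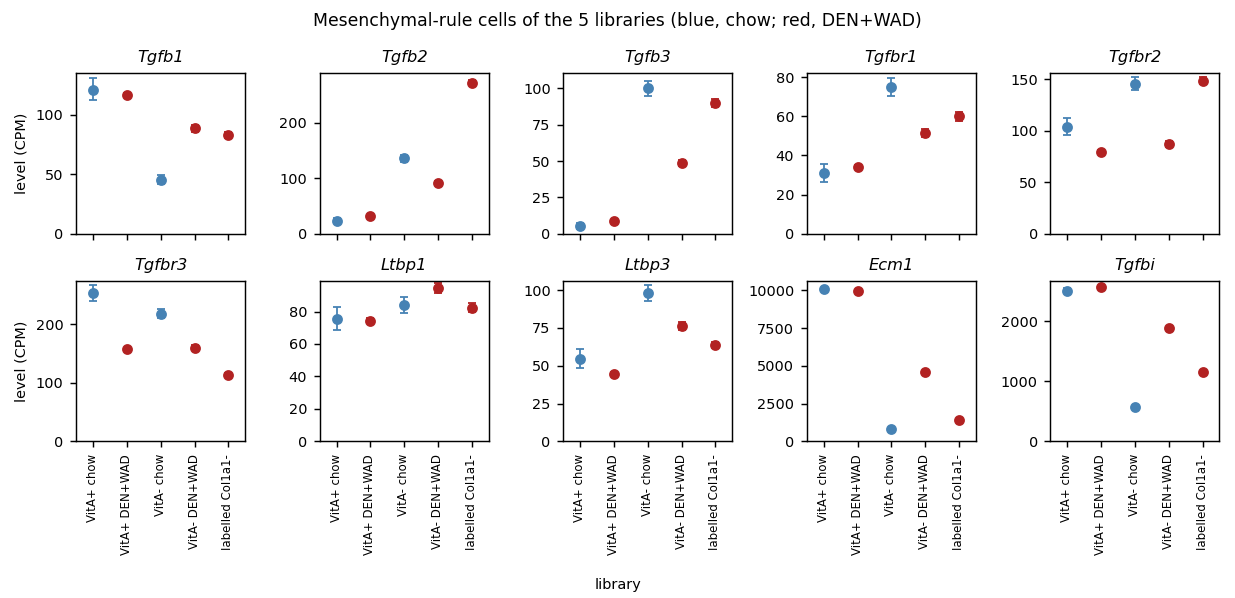
Levels of the 10 members (CPM, linear axes from 0) in the mesenchymal cells of each of the 5 libraries, blue for chow and red for DEN+WAD, with exact 95% counting intervals as bars. Ecm1 is at 10083 in VitA+ chow and 838 in VitA- chow, while Tgfb3 is at 5.15 and 100.1.

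The question of the DEN+WAD against chow contrast is what the disease model changed in each gate. In the VitA+ gate 0 of 10 members were 2-fold apart, where 3.17% of all genes tested were. The largest ratios of DEN+WAD over chow were 1.76 (1.22 to 2.61) for Tgfb3 and 1.38 (1.16 to 1.64) for Tgfb2. The lowest were 0.621 (0.589 to 0.655) for Tgfbr3 and 0.764 (0.704 to 0.831) for Tgfbr2. Tgfb1, at 0.964 (0.894 to 1.04), and Ltbp1, at 0.985 (0.896 to 1.09), had intervals that included 1, and the intervals of Tgfbr1 did so too. TMM scaling moved the log2 median of all genes by 0.11 here and the higher share of genes past 2-fold from 33.8% to 44.9%, and turned the sign of the near-zero values of Tgfb1, Ltbp1 and Ecm1.

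In the VitA- gate 3 of 10 members were 2-fold apart between DEN+WAD and chow, against 7.42% of all genes tested. Ecm1 was 5.49 times higher (5.39 to 5.59) and Tgfbi 3.33 times higher (3.25 to 3.41) in DEN+WAD, and Tgfb3 was lower at a ratio of 0.487 (0.454 to 0.522). Tgfb1 was just under the line at 1.95 (1.79 to 2.12). Tgfb2 stood at 0.672 (0.635 to 0.710), and Tgfbr1, Tgfbr2, Tgfbr3 and Ltbp3 were all between 0.599 and 0.777. Under TMM scaling, which moved the median of all genes by 0.15 and the higher share of genes past 2-fold from 33.9% to 46.4%, Tgfb1 passed the line at a log2 ratio of 1.11 and Tgfb3 left it at -0.89.

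**Figure D4:**
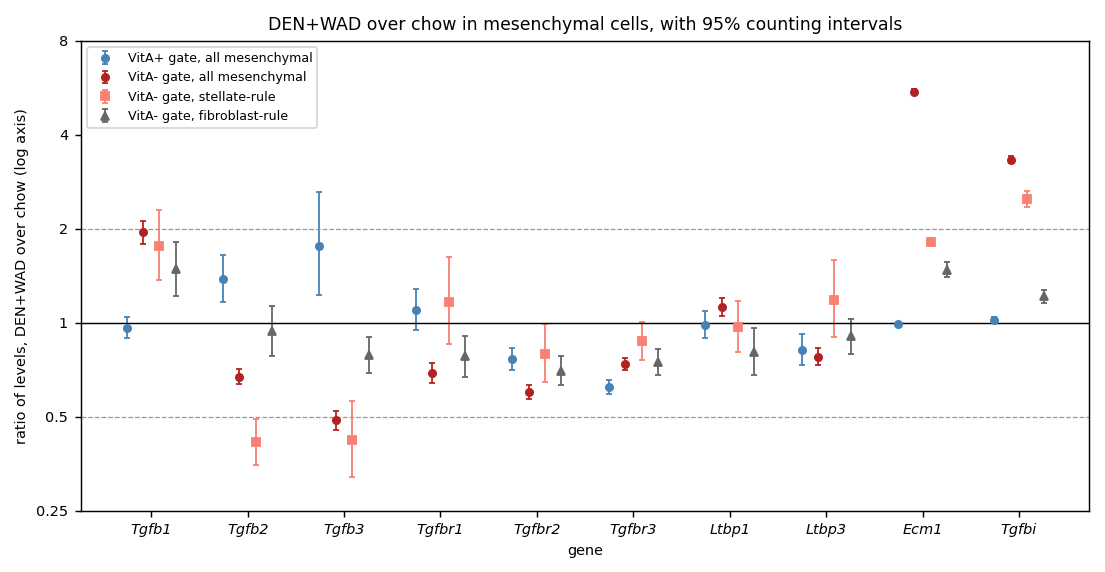
Ratio of the levels in DEN+WAD over chow (log axis) for each member in all mesenchymal cells of the VitA+ and the VitA- gate and in the stellate-rule and fibroblast-rule cells of the VitA- gate, with exact 95% counting intervals and dashed lines at 2-fold. In the VitA+ gate all 10 ratios lie within 2-fold of 1, and in all mesenchymal cells of the VitA- gate Ecm1 (5.49) and Tgfbi (3.33) lie above and Tgfb3 (0.487) below.

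The mesenchymal cells of the VitA- gate were not the same mixture in both conditions. Cells with stellate markers were 58.2% of them in DEN+WAD and 9.45% in chow, cells with fibroblast markers 12.1% and 27.7%, and cells that met no subset rule 29.1% and 59.8%. Within stellate-rule cells alone (1270 against 58) 3 of 10 members were 2-fold apart, against 8.98% of all genes. Tgfb2 was lower in DEN+WAD at 0.414 (0.351 to 0.490), Tgfb3 was lower at 0.420 (0.319 to 0.562), and Tgfbi was higher at 2.48 (2.34 to 2.64). Ecm1 stood at 1.81 (1.76 to 1.87) and Tgfb1 at 1.76 (1.37 to 2.29). Within fibroblast-rule cells alone (265 against 170) 0 of 10 were 2-fold apart, against 3.02% of all genes, with Ecm1 and Tgfb1 both at 1.48 and Tgfbi at 1.21. Tgfb2 was at 0.938 (0.781 to 1.13) and Tgfb3 at 0.787 (0.688 to 0.902) in these cells. The 5.49-fold excess of Ecm1 was therefore larger in the mixture than within either subset. In the VitA+ gate, where 97.4% (DEN+WAD) and 99.2% (chow) of mesenchymal cells met the stellate rule, stellate-rule cells alone again gave 0 of 10, against 3.07% of all genes.

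The contrast of the gates asks how VitA- differs from VitA+ Col1a1+ cells of the same condition, and it shares its libraries with the contrasts above. In DEN+WAD 3 of 10 members were 2-fold apart, against 7.82% of all genes. Tgfb2 was 2.80 times (2.68 to 2.93) and Tgfb3 5.39 times (5.02 to 5.78) as high in VitA- as in VitA+ cells, and Ecm1 was lower at 0.461 (0.459 to 0.463). In chow 6 of 10 were, against 17.2% of all genes. Tgfb3 was 19.4 times (13.5 to 28.9), Tgfb2 5.75 times (4.83 to 6.88) and Tgfbr1 2.41 times (2.06 to 2.84) as high in VitA- cells. Tgfb1 was lower at 0.375 (0.337 to 0.418), Tgfbi at 0.225 (0.219 to 0.232) and Ecm1 at 0.0831 (0.0815 to 0.0848). The same members stood apart in both conditions for Tgfb2, Tgfb3 and Ecm1.

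With stellate-rule cells alone Tgfb2 and Tgfb3 were again higher in the VitA- gate. In DEN+WAD 2 of 10 members remained past 2-fold, against 2.93% of all genes: Tgfb2 at 2.09 (1.96 to 2.22) and Tgfb3 at 2.77 (2.48 to 3.08), while Ecm1 was at 0.739. In chow 5 of 10 were past 2-fold, against 10.2% of all genes, though over only 58 VitA- cells. Tgfb2 was at 6.41 (5.07 to 8.11), Tgfb3 at 10.6 (6.72 to 17.1), Tgfb1 at 0.497 (0.379 to 0.643), Ecm1 at 0.411 (0.398 to 0.423) and Tgfbi at 0.423 (0.398 to 0.450).

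The subsets themselves differed in these genes. In VitA- DEN+WAD 3 of 10 members were 2-fold apart between fibroblast-rule and stellate-rule cells, against 13.8% of all genes. Ecm1 stood at 681 in fibroblast-rule and 7501 in stellate-rule cells, a ratio of 0.0908 (0.0878 to 0.0938). Tgfbi was at 748 against 2635, and Tgfb3 was the one higher in fibroblast-rule cells, at 84.6 against 23.0. Tgfb1 (57.8 against 106) and Ltbp1 (54.3 against 107) were just short of 2-fold lower in fibroblast-rule cells. In the labelled library 5 of 10 were 2-fold apart, against 11.3% of all genes. Ecm1 (506 against 2019) and Tgfbi (470 against 1461) were again lower in fibroblast-rule cells, as was Tgfb2 (106 against 237). Tgfbr1 (133 against 49.8) and Ltbp3 (108 against 52.2) were higher, and Tgfb3 (56.5 against 70.2) did not keep the direction it had in the other library.

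**Figure D5:**
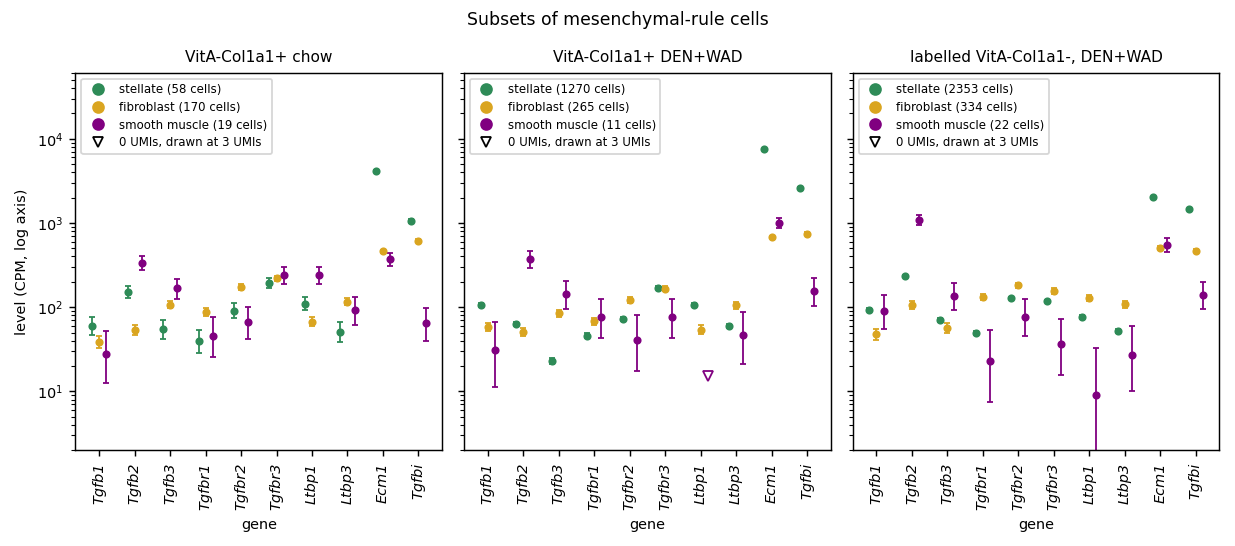
Levels of the members (CPM, log axis) in stellate-rule, fibroblast-rule and smooth muscle-rule cells of 3 libraries, with exact 95% counting intervals and an open triangle where a subset had 0 UMIs, drawn at 3 UMIs. Ecm1 is highest in stellate-rule cells of each library (7501 in VitA- DEN+WAD) and Tgfb2 in the few smooth muscle-rule cells (1082 in the labelled library).

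Among the mesenchymal subsets Tgfb2 was highest in cells with smooth muscle markers. It stood at 1082 over 22 cells of the labelled library, 369 over 11 cells of VitA- DEN+WAD and 339 over 19 cells of VitA- chow. Stellate-rule cells of the same libraries had 237, 62.9 and 152. Smooth muscle-rule cells also had the highest Tgfb3 of the subsets in each of these libraries, at 136, 143 and 168. In VitA- chow the 14 cells that met no rule had a higher Tgfb2 level still, at 427 (329 to 545, 64 UMIs). These groups are small, and no comparison over all genes was made on them.

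The pathway around the members was read from 34 further genes in 6 lists, covering activation, anchoring, other receptors, transducers, feedback and targets. In the VitA+ gate 3 of the 29 tested were 2-fold higher in DEN+WAD and none lower, against 3.17% of all genes, and all 3 were targets. Timp1, an inhibitor of matrix proteases, was at 79.6 against 1.55 (0.707 to 2.93, 9 UMIs). Acta2, the smooth muscle actin of activated HSC, was at 110.1 against 11.0, and Col1a1, a collagen I chain, at 307 against 103. The target list, 8 genes, had a median log2 ratio of 0.83, where the median of all genes was -0.05. None of the 8 targets was 2-fold apart in the VitA- gate, where the list's median was 0.22 and that of all genes -0.09. The ligands in the VitA+ gate had log2 ratios of -0.05 (Tgfb1), 0.46 (Tgfb2) and 0.81 (Tgfb3).

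Between the gates, most targets past 2-fold were higher in VitA- cells. The list ratios cover all mesenchymal cells, whose mixture differed. Stellate-rule cells were 97.4% of them in VitA+ and 58.2% in VitA- DEN+WAD, and 99.2% and 9.45% in chow. In VitA- DEN+WAD fibroblast-rule cells had 1 target 2-fold higher (Col1a1) and 3 lower (Acta2, Fn1, Postn) than stellate-rule cells. The part of the mixture in the gate contrasts of the targets was not tested. In DEN+WAD 4 of 8 targets (Ctgf, Acta2, Tagln, Col1a1) were 2-fold higher and Postn lower in VitA- cells, with a list median of 0.98 against 0.02 for all genes. In chow 5 of 8 were higher and Postn lower, with a list median of 2.26 against 0.06. Over all 6 lists the counts were 9 higher and 2 lower of 32 in DEN+WAD (7.82% of all genes), and 13 higher and 3 lower of 32 in chow (17.2% of all genes). In the VitA- gate, DEN+WAD against chow gave 1 higher (Itgb3) and 2 lower (Ltbp2, Acvrl1) of 32, near the 7.42% of all genes past 2-fold there.

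Genes that anchor and release latent TGF-beta were placed differently among the classes of the labelled library. Thbs1, the activator thrombospondin 1, was at 484 in mesenchymal, 92.4 in endothelial and 23.7 in macrophage cells. Itgb5, a beta chain of an activating integrin, was at 373, 7.56 and 296. Itgb8, the beta chain of another activating integrin, was at 11.4, 0.426 and 0.343, and Itgb6, of a further one, had 3 UMIs in mesenchymal cells and 0 in the other classes. Nrros, which anchors latent TGF-beta on macrophages, was at 0.981, 56.0 and 134. Lrrc32 (GARP), a surface anchor of latent TGF-beta, was at 140.1, 208 and 4.03 in the 3 classes. Eng, the endothelial co-receptor endoglin, was at 489, 1112 and 17.9. Of these genes, Nrros was highest in macrophages, Lrrc32 and Eng in endothelial cells, and Thbs1, Itgb5 and Itgb8 in mesenchymal cells.

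Over all lists, macrophages had 3 genes higher (Nrros, Acvrl1, Tgif1) and 25 lower of 33 against mesenchymal cells, where 42.4% of all genes were past 2-fold. Endothelial cells had 3 higher (Itgb3, Nrros, Eng) and 16 lower of 33, where 30.6% of all genes were. All 8 targets were lower in both, with list medians of -6.88 and -5.84 on the log2 scale against -0.31 and 0.10 for all genes. The matrix genes in that list are themselves mesenchymal markers.

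The genes whose levels ran most like each ligand's were found over 11 class-by-library profiles and 9929 genes, as Pearson's r of log2 levels. The profiles share libraries, and r is given as a description. For Tgfb1 they were Map3k8 (0.973), Arhgdia (0.964) and Plekho2 (0.955). For Tgfb2 they were Fat1 (0.972), Fam13c (0.963) and Wnt5a (0.954). For Tgfb3 they were Mrap (0.962), Fblim1 (0.955) and Fam162a (0.940). The 3 ligands had no gene in common among these.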

How the data were processed

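The deposited files are raw UMI count matrices, 1 per library, which the authors made with Cell Ranger 3.1.0 (the 4 Col1a1+ libraries) or 6.1.2 (the library labelled VitA-Col1a1-, per the file headers) on mm10. The labels give the 10x kit version inconsistently. The members and lists were chosen with earlier results of these data known.

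Every deposited barcode was kept. A cell was mesenchymal when Dcn, Col3a1 and Colec11 summed to 20 or more per 10000 UMIs, and endothelial, macrophage, T or NK, B or bile duct when it had UMIs of 3 or more genes of a short list (Pecam1, Cdh5, Kdr, Stab2, Ptprb for endothelial cells and C1qa, C1qb, Csf1r, Adgre1 for macrophages). Cells meeting more than 1 rule, which include doublets, were set apart, and no doublet caller was run. Stellate-rule, fibroblast-rule and smooth muscle-rule cells were mesenchymal cells with UMIs of 3 or more of their markers. No cluster names were used.

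UMIs were summed per library and class. Levels carry exact Poisson and ratios conditional binomial 95% intervals, and shares exact Clopper-Pearson ones. Genes with a mean level of 5 or more counted as tested, and 2-fold as apart. The named genes were the 10 members, the 34 list genes, and the 3 genes most correlated with each ligand. Library totals ran from 6145748 to 149936344 UMIs, so 3 UMIs correspond to between 0.0200 and 0.488 CPM. Shares of cells were computed after thinning to 2000 UMIs, leaving out shallower cells (676 of 4655 mesenchymal, 73 of 2336 endothelial and 70 of 750 macrophage cells of the labelled library; 149 of 10210, 54 of 2182, 3 of 244 and 8 of 614 mesenchymal cells of the others). Python 3.11.15, numpy 2.4.6, scipy 1.17.1, pandas 2.3.3 and, for TMM factors only, edgeR 4.0.16 in R 4.3.3 were used. The scripts were tested on simulated data. Gene positions were taken from the GRCm38 annotation and promoters from RefSeq. Alternatives were other scaling, filters, class rules, cell weights and folds.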

Additional observations from a re-analysis of the deposited data

Results flagged for a closer look

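The log2 ratio of DEN+WAD over chow in mesenchymal cells stood on opposite sides of 0 in the 2 gates for 3 members, with counting intervals that did not include a ratio of 1 in either gate. The VitA- value less the VitA+ value was -1.04 for Tgfb2, -1.85 for Tgfb3 and 2.47 for Ecm1. For Ecm1 the VitA+ value was close to 0, at a ratio of 0.990 (0.981 to 0.998), and its sign turned under TMM scaling. Each gate and condition is 1 library, so the difference was not tested. The stellate-rule share of mesenchymal cells also differed between conditions in the VitA- gate (58.2% in DEN+WAD, 9.45% in chow). Its part in the 3 values was not tested, though within stellate-rule cells Tgfb2 (0.414) and Tgfb3 (0.420) were also lower in DEN+WAD in that gate, and above 1 in the VitA+ gate (1.27 and 1.61). Within fibroblast-rule cells of the VitA- gate Tgfb2 was at 0.938, with an interval that included 1 (0.781 to 1.13). Tgfb3 was at 0.787 (0.688 to 0.902) in those cells. Within stellate-rule cells Ecm1 was at 1.01 (0.998 to 1.01) in the VitA+ gate and 1.81 in the VitA- gate, so the gates were no longer on opposite sides for it.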

How the results depend on the processing

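Of 85 recounts of members past 2-fold, 79 stayed within 1.5 times the main count. The recounts compare the number of members and not which they are. For DEN+WAD over chow in the VitA- gate, TMM scaling brought in Tgfb1 and dropped Tgfb3 at the same count. Stellate-rule cells alone brought in Tgfb2 and dropped Ecm1, again at the same count. With 1.5-fold as the line, the counts became 2 for DEN+WAD over chow in the VitA+ gate, 5 in the VitA- gate, 5 between the gates in DEN+WAD, and 7 for fibroblast-rule over stellate-rule cells in VitA-Col1a1+ DEN+WAD. With a mean level of 20 or more, macrophages over endothelial cells fell to 3. With fibroblast-rule cells only, an alternative chosen after seeing the data like the stellate-rule one, the VitA- gate gave 0 for DEN+WAD over chow. Of 540 recomputed member ratios 385 stayed within their counting interval, 153 moved beyond it and 2 that were past 2-fold changed sign. These were Ltbp3 (log2 -0.011) and Tgfbi (log2 -0.0039) in macrophages over endothelial cells when cells of more than 1 rule were kept. Sign changes of ratios under 2-fold, such as Tgfb1, Ltbp1 and Ecm1 in the VitA+ gate under TMM scaling, are not among the 2. Keeping those cells also brought endothelial over mesenchymal Tgfbr1 (log2 -0.57) and Tgfbr3 (0.57), and macrophage over mesenchymal Tgfbr1 (0.81), under 2-fold. No paired analysis was possible because each group holds 1 library and no test was run. For the same reason no replicate could be left out. Depth limits the chow libraries most, where Tgfb3 in the VitA+ gate rests on 30 UMIs.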

Other observations

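Macrophages of the library labelled VitA-Col1a1- were divided, after seeing the data, by the Kupffer cell genes Clec4f, Vsig4 and Cd5l. Tgfbi stood at 393 CPM in the 84 cells with none of these genes and at 96.1 in the 494 cells with 2 or more. Tgfbr1 stood at 180.4 and 103, Tgfb1 at 244 and 222, and Ecm1 at 21.5 and 66.5 in the same order. Cells of that library that met no rule (1040 cells, median 1538 UMIs) had 49.2 for Tgfb1 and 14.7 for Tgfb2, beside 28176 for the hepatocyte gene Alb. Cells that met more than 1 rule had 190.4 for Tgfb1 and 74.0 for Tgfb2.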
